A study of Mus musculus with 12 samples.

Results

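Oxidative phosphorylation is the mitochondrial pathway that passes electrons from nutrients to oxygen and uses the energy to make ATP. The genes described here are the nuclear genes for its protein subunits, chosen by symbol alone: Nduf genes of complex I, the Sdh genes of complex II, Uqcr genes and Cyc1 of complex III, Cox4 to Cox8 genes of complex IV, and Atp5 genes of complex V. They were 86 of the 21853 genes in the deposited table, under 85 symbols, because Atp5o had 2 identifiers. No measured value entered the rule, but the rule was set with earlier results of these data known.

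RNA was sequenced from whole bone marrow cells of B6 mice, taken 14 days after irradiation, in 4 groups of 3 libraries. Control mice were not irradiated. TBI mice received total body irradiation with 5 Gy of gamma rays at 0.66 Gy/min and then the vehicle, 100 µL of olive oil, by gavage. TBI+DEIX mice had the same irradiation and were given DEIX by mouth at 25 mg per kg body weight daily for 14 days, and DEIX mice had DEIX at that dose without irradiation. The series title names deinoxanthin, a carotenoid pigment of Deinococcus bacteria. No vehicle is stated for control mice, so dosing itself cannot be told apart from the other differences from control. The labels give no age, and they do not say whether libraries of a group came from separate animals. The p-values measure the spread between these libraries.

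Complexes I and II feed electrons from NADH and succinate into the chain, complex III hands them to cytochrome c, and complex IV passes them to oxygen. Complexes I, III and IV pump protons as they work, and complex V, the ATP synthase, lets the protons flow back to make ATP. The catalytic cores of complexes I, III and IV hold subunits encoded by mitochondrial DNA, which were not analysed here. In marrow, red cell precursors are rich in mitochondria until they mature, whereas neutrophils keep few and live largely on glycolysis.

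Values are the FPKM that the authors deposited, fragment numbers divided by the length of the transcript and by library depth. How values varied with transcript length differed between libraries, as given below, so levels of different genes compare only roughly. The tests covered the 10994 genes that reached 1 FPKM in 3 or more of the 12 libraries, among them 80 of the 86 described here: 36 of complex I, 4 of complex II, 9 of complex III, 14 of complex IV and 17 of complex V. The other 6 were Cox4i2, Cox7b2, Cox8b, Cox8c, Ndufa4l2 and the second Atp5o identifier. Cox4i2, the isoform induced by low oxygen, was highest at 3.45 FPKM in TBI+DEIX replicate 3. Cox8b of heart and muscle, Cox7b2 and Cox8c of testis, and Ndufa4l2, the paralog of Ndufa4 induced by low oxygen, did not exceed 0.131 FPKM in any library.

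Most of the subunit genes were abundant. The median over the 80 tested genes of the mean FPKM was 103, 42 had a mean over 100 FPKM, and 77 lay above the median of all tested genes. Atp5b, which encodes the catalytic beta subunit of ATP synthase, had the highest mean at 446 FPKM, with 427, 417 and 403 FPKM in control, 481, 483 and 541 after TBI, 446, 428 and 416 with TBI+DEIX and 463, 456 and 386 with DEIX. Its libraries lay within 1.40-fold of each other. Cox4i1, the common isoform of a complex IV subunit, had a mean of 441 FPKM and a range of 244 to 632. Cox8a, a small membrane subunit of complex IV, followed at 418 FPKM with a range of 137 to 582. Cox6b1, which lies on the outer side of complex IV, was next within that complex at 298 FPKM.

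Within complex I the highest means were 186 FPKM for Ndufa4, 178 for Ndufb7 and 175 for Ndufa3. Ndufa4 was first assigned to complex I and has since been described as a subunit of complex IV. In complex III the highest were the small subunits Uqcr10, Uqcrh and Uqcr11, at 205, 189 and 183 FPKM, while Cyc1, which carries the haem of cytochrome c1, had 66.2. The 4 genes of complex II had 102 FPKM for Sdhd and 49.3 for Sdhc, both membrane anchors, 77.6 for the flavoprotein Sdha and 47.5 for the iron-sulphur subunit Sdhb. In complex V, Atp5mpl, a short membrane subunit, had 329 FPKM and Atp5a1, the alpha subunit beside Atp5b, 323. The lowest tested genes were Cox7a1, the heart and muscle isoform of Cox7a, at 1.05 FPKM, the coupling factor gene Atp5s at 5.96, and the muscle isoform Cox6a2 at 6.69.

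**Figure D1:**
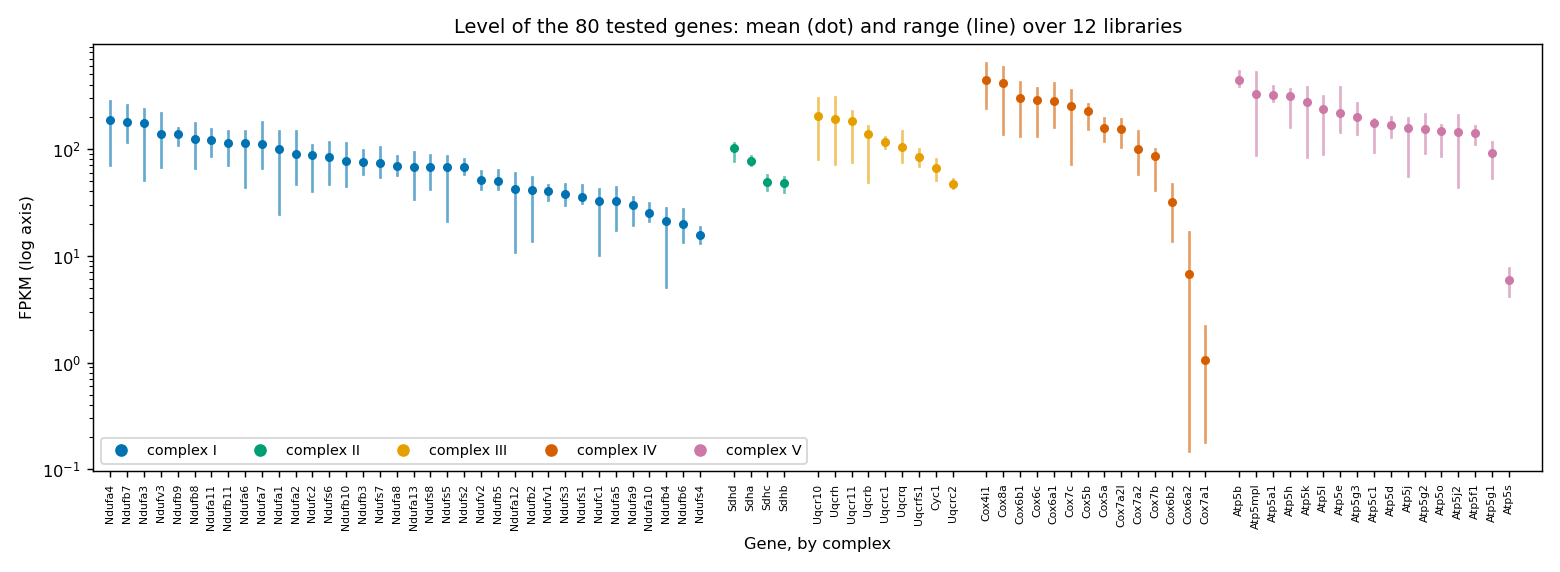
Mean (dot) and lowest to highest value (line) over the 12 libraries of each of the 80 tested genes, in FPKM on a log axis, ordered by mean within complexes I to V. Most means lie between 15 and 446 FPKM, with Atp5s, Cox6a2 and Cox7a1 below.

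One library stood apart from the other 11, and it bears on every comparison that includes TBI+DEIX. For each gene the mean of log2(FPKM + 1) over the 12 libraries was subtracted, and the median over the 80 genes was taken in each library. It was -0.73 in TBI+DEIX replicate 1, against -0.28 to 0.37 in the others, where DEIX replicate 3 was the lowest and control replicate 3 the highest. Over all tested genes the median was -0.005 in TBI+DEIX replicate 1 and -0.02 in control replicate 3. Over the 81 tested cytosolic ribosomal protein genes, also short and abundant, it was -0.90 and 0.57, further from 0 than in the subunit genes. Of the 80 genes, 60 had their lowest value of all 12 libraries in TBI+DEIX replicate 1, and 44 had their highest in control replicate 3. Counts of this kind over all tested genes are not given here. In TBI+DEIX replicate 1, 67 genes were below both other TBI+DEIX libraries and 12 were above both. The ratio of highest to lowest library was under 2 in 33 of the 80 genes, and in 67 when TBI+DEIX replicate 1 was left out. As a share of the summed FPKM of a library, without 3 neutrophil genes (S100a8, S100a9 and Ngp) that are listed at 0 in some libraries, the subunit genes made up 1.44% in TBI+DEIX replicate 1 and between 1.68% and 2.47% in the others.

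**Figure D2:**
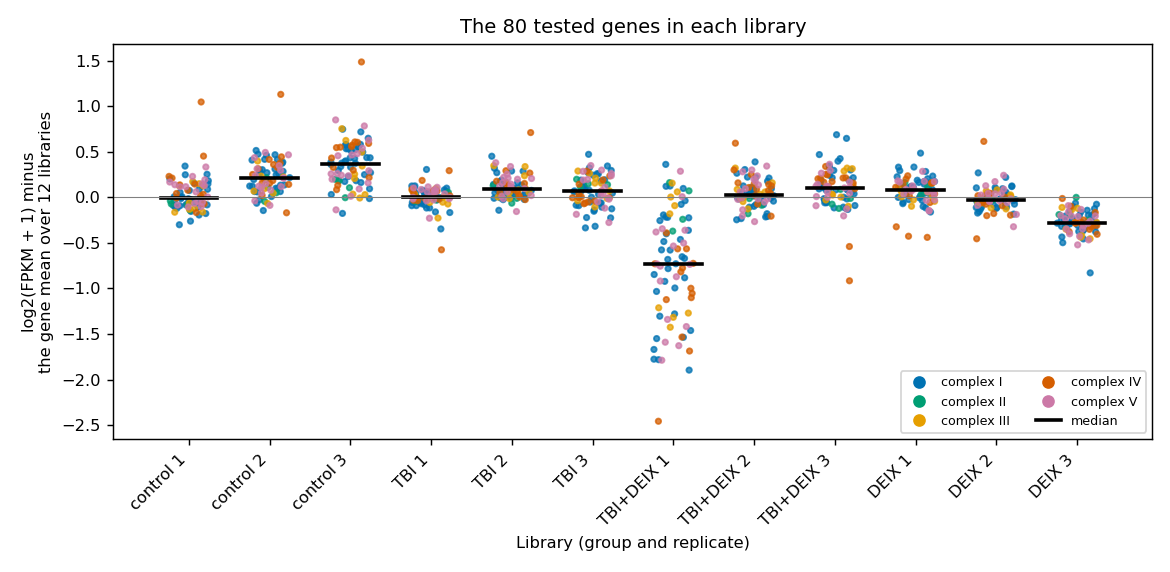
Each of the 80 tested genes in each library, as log2(FPKM + 1) minus the mean of that gene over the 12 libraries, coloured by complex, with the median of the 80 as a black line. TBI+DEIX replicate 1 has the lowest median (-0.73) and the widest spread, and control replicate 3 the highest median (0.37).

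Genes with short transcripts tended to be the low ones in TBI+DEIX replicate 1. Transcript length here is the median over the annotated protein-coding transcripts of a gene. It need not be the length of the transcript present in marrow, which was not examined. The median over the tested genes described was 669.5 bases, against 2074 over all tested genes. For the 30 genes up to 600 bases, the median difference between TBI+DEIX replicate 1 and the mean of the other TBI+DEIX libraries was -1.27 on the log2 scale, with -0.45 over all 457 tested genes of that length. It was -0.60 for the 27 genes over 600 and up to 900 bases (all tested genes -0.27) and -0.47 for the 15 over 900 and up to 1300 bases (all tested genes -0.20). The 3 genes over 1300 and up to 1800 bases had a median difference of 0.12, the 3 over 1800 and up to 2500 bases 0.08, and the 2 over 2500 bases -0.13. Single genes departed from this order: Ndufb2, with a transcript length of 2413 bases, differed by -1.57, and Ndufs1, at 651 bases, by 0.44. Such departures may come from the length measure itself, which also sets the length classes and the length trend removed below. Across the 80 genes the difference and log2 length had a Pearson r of 0.49 and a Spearman rho of 0.54, given as a description because the genes share 3 libraries. Control replicate 3 went the other way: its difference from control replicate 1 was 0.42 in the shortest class (all tested genes 0.20) and 0.25 at over 900 and up to 1300 bases, with an r of -0.34. Whether RNA quality or library preparation played a part was not tested.

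**Figure D3:**
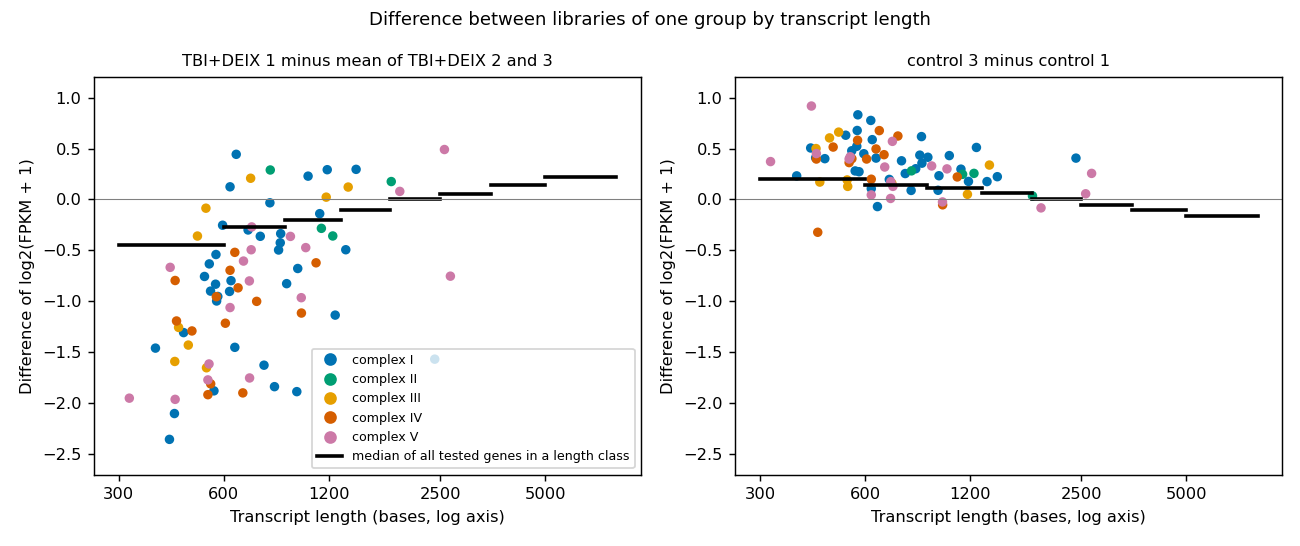
Difference of log2(FPKM + 1) between libraries of one group against transcript length in bases (log axis), TBI+DEIX replicate 1 minus the mean of replicates 2 and 3 on the left and control replicate 3 minus control replicate 1 on the right. Points are the 80 tested genes by complex and black lines the median of all tested genes in a length class, with a median of -1.27 for the 30 shortest genes on the left and 0.42 on the right.

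Small accessory and membrane subunits have short transcripts, and the values in TBI+DEIX replicate 1 also differed between the structural parts of the complexes. The median centred value in TBI+DEIX replicate 1 was -1.61 over the 4 membrane subunits of ATP synthase, -1.27 over the 5 accessory subunits of complex III and -0.78 over the 29 accessory subunits of complex I. It was -0.08 over the 7 core subunits of complex I, 0.03 over the 4 core subunits of complex III and -0.08 over complex II. Among the other parts of ATP synthase it was -0.36 over the 5 subunits of the catalytic F1 head, -0.73 over the 3 genes of the c ring and -0.84 over the 4 of the peripheral stalk. Atp5mpl had 386, 431 and 527 FPKM in control, 324, 387 and 269 after TBI, 87.8, 351 and 338 with TBI+DEIX and 277, 345 and 227 with DEIX. Its value in TBI+DEIX replicate 1 was the lowest of the 12, while TBI+DEIX replicates 2 and 3 lay inside the range of the TBI libraries. Uqcrc1, a large core subunit of complex III, had 103, 110.2 and 118 FPKM in control, 122, 119.8 and 129 after TBI, 108, 112 and 118 with TBI+DEIX and 125, 119 and 105 with DEIX, with TBI+DEIX replicate 1 among the others. By the length measure used here Uqcrc1 had 533 bases, in the shortest class. Its difference between TBI+DEIX replicate 1 and the other TBI+DEIX libraries was -0.09, where the median of that class was -1.27.

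Each comparison was a difference of group means of log2(FPKM + 1), fitted with limma for all tested genes together, and called genes are those with an adjusted p under 0.05 (Benjamini-Hochberg, over all of them). In whole marrow, fewer cells of a type and less RNA per cell cannot be told apart. A difference on this scale understates the fold of genes near 1 FPKM. The model has 1 estimate of the spread per gene, while the median within-group SD of the 80 genes was 0.19 for control, 0.11 for TBI, 0.46 for TBI+DEIX and 0.20 for DEIX. Over all tested genes it was 0.10, 0.13, 0.24 and 0.14, in the same order. Comparisons that share a group are not independent of each other: of the 4 comparisons between a pair of groups, 3 use the control libraries, 2 use TBI and 2 use TBI+DEIX, and the interaction uses all 4 groups.

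In irradiated mice given vehicle, no subunit gene was called against control, where 3.99% of all tested genes were. At an unadjusted limma p under 0.05 there were 3 of the 80 (Cox6a2, Ndufs1 and Ndufa7), against 1988 of the 10994 tested genes. The median log2 change of the 80 genes was -0.12 (all tested genes 0.05), and 62 were below 0. Without control replicate 1 the median was -0.22, with 69 below 0, and without control replicate 3 it was -0.06, with 49 below 0. With a trend on transcript length removed from each library, it was -0.03, with 45 below 0 and 35 above. The lowest changes were -1.05 ± 0.42 (SE; limma adjusted p = 0.212) for Cox6a2 and -0.49 ± 0.22 (SE; limma adjusted p = 0.261) for Ndufa7, an accessory subunit of complex I. The highest were 0.29 ± 0.12 (SE; limma adjusted p = 0.236) for Ndufs1, the largest core subunit of the NADH-oxidising arm of complex I, and 0.27 ± 0.12 (SE; limma adjusted p = 0.281) for Atp5b. With only these groups in the fit, Cox6a2 was called (limma adjusted p = 0.0026), 1 of 80, where 12.9% of all tested genes were.

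The 3 TBI libraries lay below all 3 control libraries in 10 of the 80 genes, where 16.3% of all tested genes did so. They lay above all 3 in 5, Ndufs1, Sdha, Uqcrc1, Atp5a1 and Atp5b, where 22.0% of all tested genes did. The core subunits of complexes I and III, complex II and the F1 head hold 20 of the tested genes, and the other 15 of them did not lie above control. Ndufs1 had 32.6, 31.7 and 31.0 FPKM in control and 37.4, 37.9 and 41.8 in TBI, and Sdha had 75.4, 75.1 and 77.3 and 80.5, 77.9 and 85.5. By structure, the median change was 0.10 over the 4 core subunits of complex III, 0.04 over the 5 subunits of the F1 head of ATP synthase, 0.00 over the 4 subunits of complex II and -0.06 over the 7 core subunits of complex I. It was -0.23 over the 5 accessory subunits of complex III and -0.33 over the 4 membrane subunits of ATP synthase. Among genes up to 600 bases, the median was -0.28 for the 30 subunit genes and -0.12 for all tested genes.

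DEIX in irradiated mice gave no called subunit gene either. Against TBI, TBI+DEIX had 0 of 80 called (background 8.10%). At an unadjusted limma p under 0.05 it had 5 of 80, against 2986 of the 10994 tested genes. The median change was -0.22 (all tested genes 0.00), with 74 below 0. The lowest were -1.36 ± 0.42 (SE; limma adjusted p = 0.0665) for Cox6a2 and -0.81 ± 0.29 (SE; limma adjusted p = 0.102) for Cox6b2. The highest were 0.14 ± 0.19 (SE; limma adjusted p = 0.677) for Uqcrq and 0.13 ± 0.26 (SE; limma adjusted p = 0.784) for Ndufb7, accessory subunits of complexes III and I. TBI+DEIX lay below TBI in all libraries for 10 genes, where 12.7% of all tested genes did. With only these groups in the fit, limma called 0 of all tested genes (2015 at an unadjusted p under 0.05), so the calls against TBI from the fit of all 4 groups, those of other gene lists included, were lost there. Without TBI replicate 3 the share of all tested genes called was 0.0455%, and without TBI+DEIX replicate 3 it was 0.464%.

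The median rested on TBI+DEIX replicate 1. Without it the median change was 0.01. The medians by complex were then -0.01 for complex I, -0.13 for complex II, -0.10 for complex III, 0.12 for complex IV and 0.00 for complex V. With all libraries they were -0.20, -0.09, -0.13, -0.23 and -0.31. Only Cox6a2 was called without that library, at -0.73 (limma adjusted p = 0.0246), where 25.8% of all tested genes were. Without TBI+DEIX replicate 2, Cox6a2 and Cox6b2 were called (8.70% of all tested genes), and without TBI+DEIX replicate 3 the median was -0.37. The median was -0.06 with libraries weighted by their spread, -0.14 with the length trend removed and -0.35 with FPKM rescaled to TPM (all tested genes -0.12).

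DEIX in unirradiated mice gave 0 of 80 called genes (background 7.24%). It gave 3 of 80 at an unadjusted limma p under 0.05, against 2718 of the 10994 tested genes. The median change was -0.28 (all tested genes 0.02), with 74 genes below 0. The lowest were -1.42 ± 0.42 (SE; limma adjusted p = 0.0655) for Cox6a2 and -0.67 ± 0.43 (SE; limma adjusted p = 0.37) for Atp5mpl. The highest were 0.08 ± 0.12 (SE; limma adjusted p = 0.745) for Ndufs1 and 0.07 ± 0.10 (SE; limma adjusted p = 0.695) for Uqcrc1. DEIX lay below control in all libraries for 18 genes, where 17.2% of all tested genes did. Those 18 included Cox8a, Cox7c, Uqcr10 and Atp5mpl. Cox8a had 441, 495 and 582 FPKM in control and 440.1, 409 and 328 in DEIX, with an adjusted p of 0.608 from limma. Without control replicate 3, where 44 of the 80 genes were highest, the median change was -0.19, and without DEIX replicate 3, the lowest DEIX library, it was -0.16. It was -0.18 with the length trend removed and -0.43 under TPM scaling (all tested genes -0.12). With only these groups in the fit 5 of 80 genes were called, all lower (Cox6a2, Atp5mpl, Ndufa4, Atp5j2 and Cox7c), where 18.7% of all tested genes were.

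Irradiated mice given DEIX, set against control, had the only called subunit genes: 5 of 80, all lower. Of all tested genes, 30.0% were called and 13.1% were called lower. The 5 were Cox6a2, Atp5g2, Cox6b2, Ndufa4 and Ndufc2. At an unadjusted limma p under 0.05 there were 16 of the 80, against 4577 of the 10994 tested genes. The median change was -0.38 (all tested genes 0.02), and 75 were below 0. The 3 TBI+DEIX libraries lay below all control libraries in 15 genes, where 21.1% of all tested genes did. By complex the medians were -0.36 for I, -0.10 for II, -0.13 for III, -0.43 for IV and -0.40 for V. Without TBI+DEIX replicate 1 the median over the 80 was -0.11, and 3 genes were called (Cox6a2, Atp5g2 and Ndufa4), where 38.5% of all tested genes were. Without control replicate 2, and likewise without control replicate 3, Cox6a2 alone was called, where 18.2% and 20.1% of all tested genes were. Without TBI+DEIX replicate 2 there were 11 called subunit genes (28.6% of all tested genes), and without TBI+DEIX replicate 3 there were 9 (24.3%). TPM scaling called 20 of 80, above its share of 16.2% of all tested genes, and TPM scaling without the neutrophil genes S100a8, S100a9 and Ngp called 32, where the share was 23.2%, so the standing of the count against the background turned with the scaling. The median was -0.13 with library weights and -0.21 with the length trend removed.

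**Figure D4:**
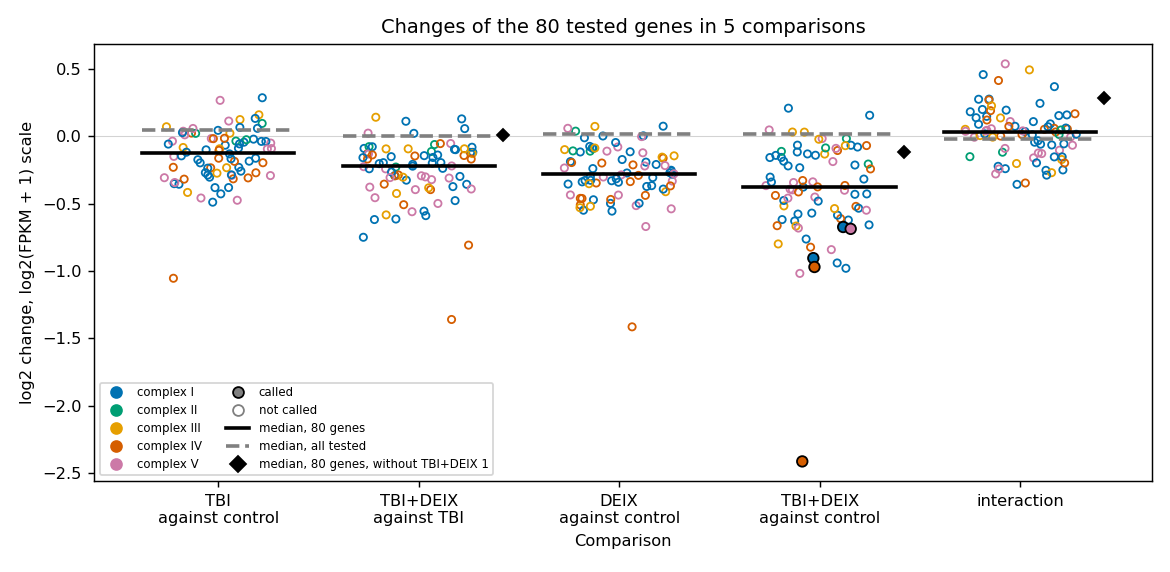
Log2 change of each of the 80 tested genes on the log2(FPKM + 1) scale in 5 comparisons, coloured by complex, filled where called. Solid lines are medians of the 80 genes, dashed lines medians of all tested genes, and diamonds the median of the 80 without TBI+DEIX replicate 1: the 5 called genes all lie below 0 in TBI+DEIX against control, and the diamonds lie nearer to 0 than the solid lines in both TBI+DEIX comparisons but not in the interaction.

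Atp5g2 is 1 of 3 genes that encode the same mature subunit c, the ring that turns in the membrane part of ATP synthase. It had 167, 210.2 and 209 FPKM in control, 148, 164 and 164 after TBI, 90.8, 138 and 139 with TBI+DEIX and 166, 143 and 124 with DEIX. All 3 control libraries were above all 9 others, with control replicate 1 the nearest to them, and TBI+DEIX replicate 1 was the lowest. Against control it fell in TBI+DEIX by 0.69 on the log2 scale, with -0.69 ± 0.18 (SE; limma adjusted p = 0.0141), and 1.59-fold in mean FPKM. It was called under 14 of 17 settings, and not with only the compared groups or without control replicate 2 or 3. The same comparison gave -0.40 ± 0.22 (SE; limma adjusted p = 0.189) for Atp5g1 and -0.34 ± 0.20 (SE; limma adjusted p = 0.225) for Atp5g3, neither called. Atp5g3 had 182, 218 and 271 FPKM in control and 138, 194 and 196 in TBI+DEIX, so that the groups overlapped.

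Ndufa4 had 211, 254 and 279 FPKM in control, 194, 196 and 161 after TBI, 71.2, 168 and 188 with TBI+DEIX and 195, 168 and 144 with DEIX. All control libraries were above those of the other groups, and TBI+DEIX replicate 1 was the lowest of the 12. Its change in TBI+DEIX against control was -0.90 ± 0.30 (SE; limma adjusted p = 0.0411), and -0.47 without TBI+DEIX replicate 1 (limma adjusted p = 0.0356). It was called under 11 of 17 settings, and not without a filter, with only the compared groups, with a replicate block or without any 1 of the control replicates. Ndufc2, an accessory subunit in the membrane arm of complex I, had 89.9, 109.8 and 109 FPKM in control, 89.5, 103 and 90.6 after TBI, 40.8, 82.7 and 77.0 with TBI+DEIX and 91.1, 87.5 and 70.8 with DEIX. Its TBI+DEIX libraries were below all control libraries and all TBI libraries, and its change against control was -0.67 ± 0.23 (SE; limma adjusted p = 0.0431). Without TBI+DEIX replicate 1 it was -0.36 (limma adjusted p = 0.051), and it was called under 11 of 17 settings, with no call also without a filter, with only the compared groups or without any 1 of the control replicates. An annotated processed pseudogene, Gm16053, lies within Ndufc2 on the same strand, and how reads shared between copies were assigned is not given in the sources used here.

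Complex IV is the complex with the most tissue-specific subunit isoforms, and 2 of its minor isoforms were called. Cox6a2 is the heart and skeletal muscle form of a subunit whose common form is Cox6a1. It had 12.02, 12.8 and 16.7 FPKM in control, 5.38, 6.72 and 6.20 after TBI, 0.147, 4.46 and 2.34 with TBI+DEIX and 4.04, 4.91 and 4.61 with DEIX. Every control library was at least 12.02 FPKM and no library of another group exceeded 6.72. TBI+DEIX replicate 1 was close to 0. In TBI+DEIX against control its change was -2.41 ± 0.42 (SE; limma adjusted p = 0.00205), a 5.97-fold lower mean FPKM, and it was called there under all 17 settings tried, from -3.30 to -1.69 on the log2 scale. In the other 2 comparisons with control the changes were those given above, each with an adjusted p over the threshold.

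Cox6a1 had 275, 305 and 411 FPKM in control, 269.9, 287 and 275 after TBI, 161, 305 and 320.2 with TBI+DEIX and 308, 266 and 208 with DEIX, which overlapped between all groups. Its change in TBI+DEIX against control was -0.38 ± 0.26 (SE; limma adjusted p = 0.292). Cox6b2 is the testis form of a subunit whose common form is Cox6b1. Cox6b2 had 35.4, 39.8 and 46.9 FPKM in control, 37.5, 33.3 and 37.3 after TBI, 13.6, 28.8 and 20.6 with TBI+DEIX and 22.4, 47.1 and 23.2 with DEIX. Its TBI+DEIX libraries lay below all control and TBI libraries, DEIX replicate 2 was just above the highest control, and its change in TBI+DEIX against control was -0.97 ± 0.29 (SE; limma adjusted p = 0.0271), called under 13 of 17 settings and not without control replicate 2 or 3 or TBI+DEIX replicate 1 or 3. Cox6b1 had 297, 392 and 424 FPKM in control, 302, 305 and 276 after TBI, 132, 314 and 333 with TBI+DEIX and 311, 250.4 and 242 with DEIX, with a change of -0.61 ± 0.30 (SE; limma adjusted p = 0.146). Cox7a2, the common form of Cox7a, was not called in that comparison, at -0.44 ± 0.23 (SE; limma adjusted p = 0.181), nor was Cox7a2l, a relative known as a supercomplex assembly factor, at -0.33 ± 0.15 (SE; limma adjusted p = 0.132). Cox7a1, the heart and muscle form, stayed at or below 2.19 FPKM in all 12 libraries, and Cox7b, with one form in most tissues, ranged from 41.3 to 99.5 FPKM, lowest in TBI+DEIX replicate 1.

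**Figure D5:**
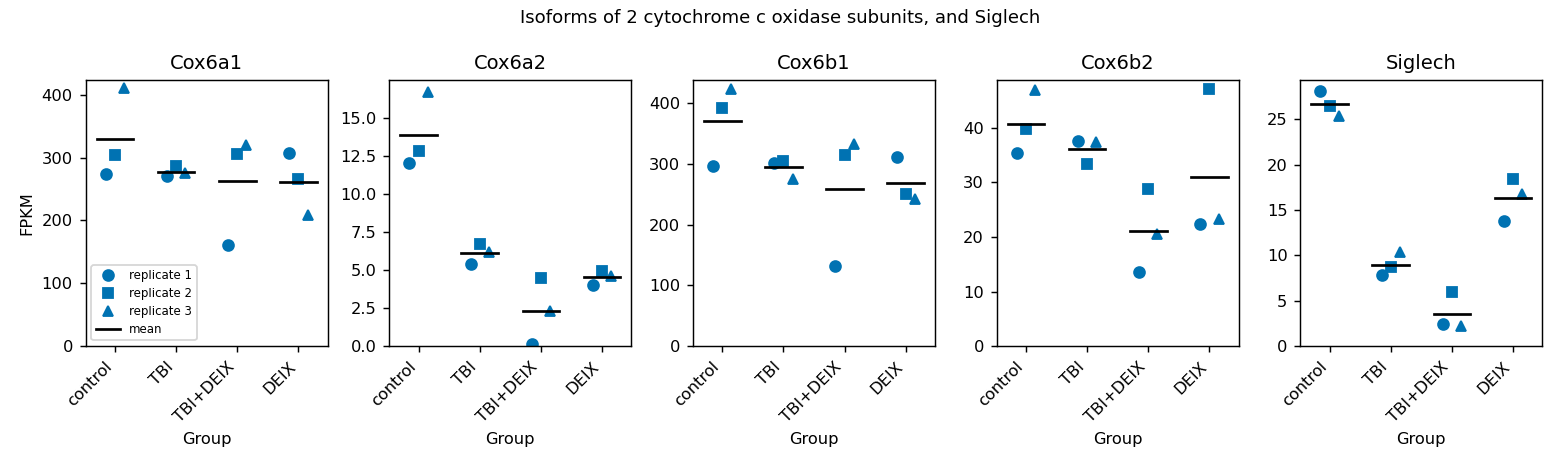
FPKM in each library (symbols mark the replicate, lines the group mean, each axis from 0) of the common isoforms Cox6a1 and Cox6b1, the minor isoforms Cox6a2 and Cox6b2, and Siglech, a marker of plasmacytoid dendritic cells. For Cox6a2 and Siglech, all control libraries are above all others. The DEIX libraries all lie below the TBI libraries for Cox6a2 and above them for Siglech.

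Cox6a2 lies on chromosome 7 at 128205435 to 128206387 on the minus strand (GRCm38, gene ENSMUSG00000030785.8), entirely inside the gene Itgad on the opposite strand. Itgad had 4.24, 5.50 and 3.55 FPKM in control, 1.65, 2.25 and 2.44 after TBI, 1.46, 5.62 and 2.28 with TBI+DEIX and 1.11, 1.02 and 1.65 with DEIX. All TBI and all DEIX libraries of Itgad lay below every control library, as for Cox6a2, while TBI+DEIX replicate 2 was the highest of the 12. Whether strand was used when the reads were counted is not given in the sources used here. Of 12 markers of skeletal muscle, also listed after the values of Cox6a2 had been seen, 7 that define the tissue (Acta1, Ckm, Myh1, Myh4, Myl1, Pvalb and Tnnc2) did not exceed 0.392 FPKM in any library. Tnnt3 did not exceed 1.32 FPKM, and the 4 tested ones, Mylpf, Tnni2, Atp2a1 and Eno3, summed to 15.5 to 18.3 FPKM in control, 12.1 to 14.3 after TBI, 10.2 to 13.3 with TBI+DEIX and 9.94 to 23.4 with DEIX. Their median changes were -0.43 in TBI, -0.46 in DEIX and -0.39 in TBI+DEIX against control, and Atp2a1, the calcium pump of fast muscle, was called lower in DEIX and in TBI+DEIX against control. Markers of plasmacytoid dendritic cells, the marrow cells that make type I interferon, were listed after the values of Cox6a2 had been seen. Of 9 tested, 5 were called lower in TBI against control, 3 in TBI+DEIX against TBI, 1 in DEIX against control and 8 in TBI+DEIX against control. The shares of all tested genes called lower were 3.10%, 3.41%, 2.72% and 13.1%, in that order. In each of these comparisons except TBI against control, 1 of the 9 was above 0. Siglech, the marker that defines them most closely, had 28.1, 26.5 and 25.3 FPKM in control, 7.81, 8.69 and 10.4 after TBI, 2.43, 5.94 and 2.26 with TBI+DEIX and 13.8, 18.4 and 16.8 with DEIX. Summed over the list, FPKM was 261 to 294 in control, 125 to 136 after TBI, 60.2 to 107 with TBI+DEIX and 167 to 186 with DEIX. The part of these cells in the values of Cox6a2 was not tested.

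The difference between the DEIX effect in irradiated and in unirradiated mice was tested as an interaction. No subunit gene was called, where 0.200% of all tested genes were. None had an unadjusted limma p under 0.05, against 825 of the 10994 tested genes. The median of the 80 genes was 0.03 (all tested genes -0.02), with 48 above 0. The highest values were 0.54 ± 0.35 (SE; limma adjusted p = 0.871) for Atp5e, a small subunit of the stalk that turns in the F1 head, and 0.49 ± 0.27 (SE; limma adjusted p = 0.778) for Uqcrq. The lowest were -0.36 ± 0.50 (SE; limma adjusted p = 0.999) for Ndufb2 and -0.35 ± 0.41 (SE; limma adjusted p = 0.995) for Cox6b2. The sign of this median was not stable, since it ranged from -0.09 to 0.28 when 1 library was left out and was below 0 without control replicate 3, TBI replicate 1, TBI+DEIX replicate 2, TBI+DEIX replicate 3 or DEIX replicate 3. It was -0.01 with the length trend removed and 0.26 with library weights. Without TBI+DEIX replicate 1 the median was 0.28 and 66 of 80 genes were above 0. There, 26 of the 80 had an unadjusted limma p under 0.05, against 2097 of the 10994 tested genes. None of the 80 was called, where 3.01% of all tested genes were.

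Promoters of 4 of the 5 called genes, from RefSeq (build GRCm38.p6, from 250 bases before to 50 after the start), are shown with that of Cox6b1, the common partner of a called gene. The promoter of Cox6a2 was not analysed here. Nuclear respiratory factor 1 (NRF1), GABP of the ETS family and YY1 are the transcription factors best known for binding promoters of respiratory chain genes. Their motifs were searched as GCGCATGCG, CCGGAAG and AAGATGGCG on both strands, and capitals mark each match, overlapping matches merged.
Atp5g2, chr15:102670998-102671297, minus strand: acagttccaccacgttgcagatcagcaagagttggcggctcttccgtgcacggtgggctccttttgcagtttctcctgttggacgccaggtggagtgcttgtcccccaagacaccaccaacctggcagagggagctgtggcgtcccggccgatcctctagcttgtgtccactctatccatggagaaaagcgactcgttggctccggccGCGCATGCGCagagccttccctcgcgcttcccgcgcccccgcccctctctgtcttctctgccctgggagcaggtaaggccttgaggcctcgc
Cox6b2, chr7:4753045-4753344, minus strand: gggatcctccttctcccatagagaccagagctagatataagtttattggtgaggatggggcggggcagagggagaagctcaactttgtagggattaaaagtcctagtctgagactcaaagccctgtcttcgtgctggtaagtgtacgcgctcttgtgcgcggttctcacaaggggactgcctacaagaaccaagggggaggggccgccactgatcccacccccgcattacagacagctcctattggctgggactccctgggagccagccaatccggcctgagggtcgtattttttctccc
Cox6b1, chr7:30626065-30626364, minus strand: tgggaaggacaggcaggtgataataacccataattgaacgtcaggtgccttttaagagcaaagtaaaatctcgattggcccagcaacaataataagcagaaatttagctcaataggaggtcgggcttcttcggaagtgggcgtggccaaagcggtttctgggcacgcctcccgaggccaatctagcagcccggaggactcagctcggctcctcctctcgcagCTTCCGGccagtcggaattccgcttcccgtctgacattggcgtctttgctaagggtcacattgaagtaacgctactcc
Ndufa4, chr6:11907401-11907700, minus strand: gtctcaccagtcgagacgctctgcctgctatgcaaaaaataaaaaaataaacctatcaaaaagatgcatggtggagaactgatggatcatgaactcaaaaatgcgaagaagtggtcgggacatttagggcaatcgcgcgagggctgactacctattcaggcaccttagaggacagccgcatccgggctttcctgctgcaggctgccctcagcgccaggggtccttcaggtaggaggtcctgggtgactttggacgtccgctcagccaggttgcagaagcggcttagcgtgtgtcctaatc
Ndufc2, chr7:97399753-97400052, plus strand: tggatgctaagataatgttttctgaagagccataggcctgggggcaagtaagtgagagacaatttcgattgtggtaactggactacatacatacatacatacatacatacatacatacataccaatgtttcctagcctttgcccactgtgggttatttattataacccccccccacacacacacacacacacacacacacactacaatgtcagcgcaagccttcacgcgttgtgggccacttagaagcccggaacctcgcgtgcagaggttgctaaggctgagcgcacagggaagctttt
Atp5g2 held the NRF1 motif, matched on both strands because the motif is nearly a palindrome, and Cox6b1 held the ETS motif. The windows of Cox6b2, Ndufa4 and Ndufc2 held none of the 3 letter strings. Of 66 subunit genes with a promoter in that table, 8 held the NRF1 motif (12.1%), 16 the ETS motif (24.2%) and 7 the YY1 motif (10.6%). Among tested genes with a promoter there the shares were 4.42%, 21.6% and 3.95%, and among all 27025 promoters 1.95%, 9.93% and 1.64%. A match describes letters only and shows no binding.

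Genes that build or serve the respiratory chain were taken from lists fixed by symbol. In TBI+DEIX against control, 16.9% of all tested genes were called higher and 13.1% lower. The shares called lower in TBI against control, TBI+DEIX against TBI and DEIX against control were 3.10%, 3.41% and 2.72%. Of 44 tested assembly factors, which put the complexes together, none was called in TBI or in DEIX against control, 1 was called lower in TBI+DEIX against TBI and 3 lower in TBI+DEIX against control. These are 2.27% and 6.82% of the list, both under the shares of all tested genes called in those comparisons (8.10% and 30.0%). Those 3 were Uqcc2 (log2 change -1.13), Sdhaf4 (-0.91) and Ndufaf2 (-0.67), the last also called against TBI (-0.61). Cox17, the copper chaperone of complex IV and the most abundant of the list, had 101, 124 and 152 FPKM in control, 102, 109 and 110.0 after TBI, 48.1, 124 and 133 with TBI+DEIX and 113, 82.8 and 75.7 with DEIX. Cox20, another complex IV assembly factor, had 53.4, 58.4 and 61.7 FPKM in control, 53.7, 58.0 and 47.5 after TBI, 14.9, 54.7 and 48.9 with TBI+DEIX and 38.5, 48.6 and 34.2 with DEIX. Both had their lowest value in TBI+DEIX replicate 1.

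Of 17 genes of the citric acid cycle and pyruvate dehydrogenase, which supply the electrons, TBI+DEIX against control had 2 called higher and 4 called lower, 35.3% of the list and close to the 30.0% of all tested genes. Mdh2, malate dehydrogenase, rose by 0.48 and had 169, 180.1 and 173 FPKM in control, 208, 223 and 236 after TBI, 265, 229.7 and 239 with TBI+DEIX and 201, 199.8 and 184 with DEIX. Dlst rose by 0.25. Idh2 fell by 0.84, Fh1 by 0.46, Idh3g by 0.45 and Pdhb by 0.33 on the log2 scale. Idh2 and Fh1 were also called lower against TBI. Cs, citrate synthase, was not called in any comparison and had 102, 98.0 and 98.4 FPKM in control, 123, 119 and 136 after TBI, 126, 112 and 114 with TBI+DEIX and 114, 113 and 108 with DEIX. Over these 17 genes, whose median length was 1616 bases, the median change in TBI+DEIX against control was 0.09, and TBI+DEIX replicate 1 stood at 0.12.

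Among 11 genes for electron carriers and for the import and export of ATP and phosphate, Vdac2, an outer membrane channel, was called higher in TBI+DEIX against control (0.42) and there was no other call in these comparisons. Ucp2, an uncoupling protein abundant in marrow, ranged from 432 to 664 FPKM, and Slc25a5, an ATP and ADP exchanger, from 332 to 438. Of 14 tested regulators of mitochondrial content, Polg, the mitochondrial DNA polymerase (0.70), and the nuclear receptor Esrra (0.41) were called higher and Tfb1m, a methyltransferase of mitochondrial ribosomal RNA (-0.59), lower in TBI+DEIX against control. Tfb1m was also lower against TBI (-0.53).

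The genes of cytosolic ribosomal proteins resemble the subunit genes in being short and abundant, with a median of 772 FPKM against 103. Of 81 tested cytosolic ribosomal protein genes, 45 were called lower in TBI+DEIX against control, with a median change of -0.79 and a median length of 711.5 bases. The largest fall among them was that of Rpl36a (-1.15). Rps27, the most abundant, had 3377, 3527 and 4349.6 FPKM in control, 2032, 2588 and 1678 after TBI, 422, 2564 and 2377 with TBI+DEIX and 1890.5, 2742 and 1595 with DEIX, and Rpl41 was also lowest in TBI+DEIX replicate 1, at 749 FPKM. Their medians in the other comparisons were -0.34 in TBI against control, -0.41 in TBI+DEIX against TBI and -0.45 in DEIX against control, with no call. Of 78 mitochondrial ribosomal protein genes, with a median length of 1051.5 bases and a median of 19.2 FPKM, 4 were called lower in TBI+DEIX against control and the median was -0.21. Mrps28 fell the most (-0.82), and the most abundant, Mrpl33 and Mrps21, had means of 231 and 105 FPKM.

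Marker genes of marrow lineages were examined in the same libraries. Erythroid markers, of which 5 of 15 were called lower in TBI+DEIX against TBI and 10 of 15 against control, summed to 4884 to 7971 FPKM in control, 2588 to 12429 after TBI, 330.4 to 2308 with TBI+DEIX and 1966 to 11501 with DEIX. The lowest sum was in TBI+DEIX replicate 1. B lineage markers, of which 10 of 12 were called lower in TBI+DEIX against control, and 1 of 12 in TBI and in DEIX against control, summed to 539 to 659.6 FPKM in control, 34.6 to 449 after TBI, 8.68 to 237 with TBI+DEIX and 71.5 to 110.4 with DEIX, lowest in TBI+DEIX replicate 1. Megakaryocyte and platelet markers, of which 4 of 6 were called lower in TBI and 5 of 6 in TBI+DEIX against control, summed to 106 to 163 FPKM in control, 23.3 to 43.9 after TBI, 21.6 to 38.7 with TBI+DEIX and 59.5 to 99.4 with DEIX. Stem and progenitor markers, of which 3 of 7 and 5 of 7 were called lower in those comparisons, summed to 62.9 to 65.2 FPKM in control, 30.4 to 31.7 after TBI, 23.8 to 36.6 with TBI+DEIX and 46.8 to 65.9 with DEIX. Of 12 proliferation markers, none was called in TBI against control, where all 12 were above 0 (median 0.28), and 4 were called lower in TBI+DEIX against TBI. Of 8 T and NK cell markers, 2 were called lower in TBI and 3 in TBI+DEIX against control. Of 8 monocyte and macrophage markers, 1 was called higher in DEIX against control (median 0.37) and 2 lower in TBI+DEIX against control (median -0.45). Maturing neutrophil markers had 3 of 10 called higher in TBI+DEIX against control, where 16.9% of all tested genes were called higher. Their median change was 0.58 there, 0.54 in TBI+DEIX against TBI and 0.61 in DEIX against control. Of 5 promyelocyte markers, 1 was called lower in TBI+DEIX against control. The part of cell composition in the changes of the subunit genes was not tested.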

How the data were processed

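Whole marrow messenger RNA was measured in 12 mouse libraries made with a strand-preserving MGI kit. The authors deposited FPKM per gene and library; STAR 2.6, Cufflinks 2.2.1 and the build mm10 are named in the submitters' processing notes, with no role or setting. The annotation, the set of fragments used for scaling and the use of strand are not given in the sources used here. The depth in reads is unknown. In 8 libraries the low values had steps clear enough to compare depth, and 1 read was worth 0.895 to 1.89 times its FPKM in control replicate 1. All 21853 identifiers matched GENCODE vM21, which gave symbols, coordinates and transcript lengths. Genes with at least 1 FPKM in 3 or more libraries entered as log2(FPKM + 1), and limma 3.58.1 in R 4.3.3 fitted 4 group means (lmFit, eBayes with trend, 8 residual degrees of freedom, two-sided, Benjamini-Hochberg over 10994 genes).

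Named genes are the 3 most abundant of each complex, called genes or else the 2 largest changes each way, isoforms, complex II, Cyc1, and for each pathway list its 2 most abundant genes and largest called changes. Genes outside this rule were named after their values were seen. The genes, lists and tests were chosen with earlier results of these data known. Alternatives were a pseudocount of 0.1, no filter, a mean of at least 5 FPKM, TPM scaling with and without S100a8, S100a9 and Ngp, median-ratio scaling, fits of the compared groups only, library weights, a replicate block and leaving out each library. Removing a length trend per library (loess, span 0.3) was chosen after seeing the data. The fit was tested on simulated data. Cell type markers were erythroid, B lineage, promyelocyte, maturing neutrophil, monocyte and macrophage, T and NK, megakaryocyte and platelet, stem and progenitor, and proliferation lists, with plasmacytoid dendritic cell and skeletal muscle lists added later.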

Additional observations from a re-analysis of the deposited data

How the results depend on the processing

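Leaving out 1 library gave medians of the 80 genes of -0.22 to -0.06 in TBI against control, -0.37 to 0.01 in TBI+DEIX against TBI, -0.39 to -0.16 in DEIX against control, -0.54 to -0.11 in TBI+DEIX against control and -0.09 to 0.28 in the interaction. With library weights they were -0.10, -0.06, -0.29, -0.13 and 0.26, in the same order. Counts of called subunit genes also moved, as did the share of all tested genes called, given in parentheses. In TBI against control, 0 (3.99%) became 1 with only the compared groups in the fit (12.9%) and 16 with library weights (38.4%, 13 lower and 3 higher). The weight was lowest for TBI+DEIX replicate 1 (0.071) and highest for control replicate 2 (11.0) and TBI replicate 2 (3.76). Control replicates 1 and 3 had weights of 1.57 and 0.81, and TBI replicates 1 and 3 had 0.48 and 0.78, so weighted results lean on single libraries. In TBI+DEIX against TBI, 0 (8.10%) became 3 under TPM scaling without S100a8, S100a9 and Ngp (4.48%), 4 with library weights (40.8%), 1 with the length trend removed (9.46%), and 0 to 2 when 1 library was left out. With only the compared groups it stayed at 0, and limma called 0 of all tested genes there, with 2015 at an unadjusted p under 0.05. In DEIX against control, 0 (7.24%) became 2 under that TPM scaling (3.81%), 5 with only the compared groups (18.7%), 29 with library weights (41.0%) and 1 with the length trend removed (7.62%). In TBI+DEIX against control, 5 (30.0%) became 3 without a filter (21.0%), 20 under TPM scaling (16.2%), 32 under TPM scaling without those 3 genes (23.2%), 2 with only the compared groups (19.8%), 15 with library weights (56.3%), 8 with the length trend removed (30.2%), both with Ndufa8 higher and the others lower, and 1 to 11 when 1 library was left out. The cause was not tested. The interaction had 0 called subunit genes under each alternative. With the length trend removed, the medians of the 80 genes were -0.03, -0.14, -0.18, -0.21 and -0.01 in the 5 comparisons, in the order of this paragraph. TPM scaling moved the median of all tested genes to -0.12 in TBI+DEIX against TBI and in DEIX against control, where the subunit genes had medians of -0.35 and -0.43. It also changed the calls over all genes in TBI+DEIX against TBI from 516 higher and 375 lower to 54 and 103, in DEIX against control from 497 and 299 to 54 and 228, and in TBI+DEIX against control from 1855 and 1444 to 546 and 1239. Cox7a1, near 1 FPKM, reversed in TBI against control with library weights, to 0.59 (limma adjusted p = 0.0308).

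Same-numbered libraries of different groups were not paired by any label, and their deviations from the group means correlated at -0.45 to 0.24, over 0.1 in 3 of 18 pairs, with 1 of 12 libraries closest to its own number. With the replicate block, 0, 0, 0, 4 and 0 subunit genes were called in the 5 comparisons, Ndufa4 being the call lost. The files give no read counts, so no limit from depth can be given. An exact permutation test of 3 against 3 cannot go below p = 0.1 and was not used.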
